A study of Mus musculus with 2 samples.

Results

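The genes described here encode transporters of potassium, protons, sodium, calcium and anions in the sperm membrane. They are Kcnu1, Lrrc52, Slc9c1, Hvcn1, Atp1a4, Atp2b4, Slc26a3 and Slc26a8, chosen by name as a functional group. All 8 were found among the 43346 Ensembl genes of the deposited tables, which were measured by sequencing poly(A)-selected RNA of mouse testis. There is 1 group with 2 libraries, replicates 1 and 2, from C57BL/6J males aged 8 weeks and said to be littermates. Both carry the same donor identifier, so separate animals are not established, and an SD over them measures only the spread between these libraries, which may be technical. The labels name no allele, treatment or second condition, so no test between groups could be made.

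A sperm leaves the testis with little cytoplasm and no new transcription, so the channels and pumps it will use during capacitation are made from RNA laid down in spermatocytes and spermatids. On reaching the female tract, the membrane hyperpolarises through the potassium channel SLO3, the cytoplasm becomes alkaline through proton export, and calcium enters through CatSper. Sodium and calcium pumps keep the gradients on which these movements rest, and SLC26 proteins exchange chloride, bicarbonate and other anions.

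Expected counts on Ensembl genes summed to 49023238 in replicate 1 and 51465728 in replicate 2. The tissue label was checked against marker genes. All 8 elongating spermatid and all 5 round spermatid markers were detected, meaning that TPM (a relative level scaled for transcript length) was 1 or more in each library, as were all 5 Sertoli and all 5 Leydig markers. The libraries differed in both testis cell markers and markers of other tissue. All 5 Sertoli markers were higher in replicate 2, at sums of 1375.4 and 1758.5 TPM in replicates 1 and 2. So were 4 of 5 round spermatid markers, at 2886.1 and 3177.4. Leydig markers were higher in replicate 2 in 4 of 5 cases, at sums of 4468.1 and 5525.3. Insl3 alone made up 93.7% and 95.5% of those sums. Cyp11a1, at 80.45 and 80.87, and Star, at 15.03 and 15.5, were nearly equal, and Cyp17a1 was lower in replicate 2, at 182.97 and 148.11. Of 5 spermatocyte markers 4 were higher in replicate 2, although their sum was higher in replicate 1, at 1023.5 and 962.59. Elongating spermatid markers were higher in each library in 4 of 8 cases, at 75546 and 71750.7. The 11 epididymis markers summed to 715.21 TPM in replicate 1 and 3.81 TPM in replicate 2, and Lcn10 and Ovch2 were at 0 in both. All 6 smooth muscle markers were higher in replicate 1, at sums of 305.15 and 143.04. In whole tissue, fewer cells of a type and less RNA per cell cannot be told apart.

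Of the 8 genes, 6 were detected, where 62.1% of 21474 protein-coding genes were. Atp1a4, Slc26a8, Lrrc52, Kcnu1, Slc9c1 and Atp2b4 passed, and Hvcn1 and Slc26a3 did not. The median of mean TPM over the 8 was 36.355, against 3.58 over all protein-coding genes. Ordered by mean TPM, 5 of the 7 neighbouring pairs had separate library values. Lrrc52 and Kcnu1 overlapped, and so did Slc9c1 and Atp2b4, so the order within those pairs is not fixed by these libraries. No permutation test of 2 values against 2 can give a two-sided p below 0.333, so none is given.

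**Figure D1:**
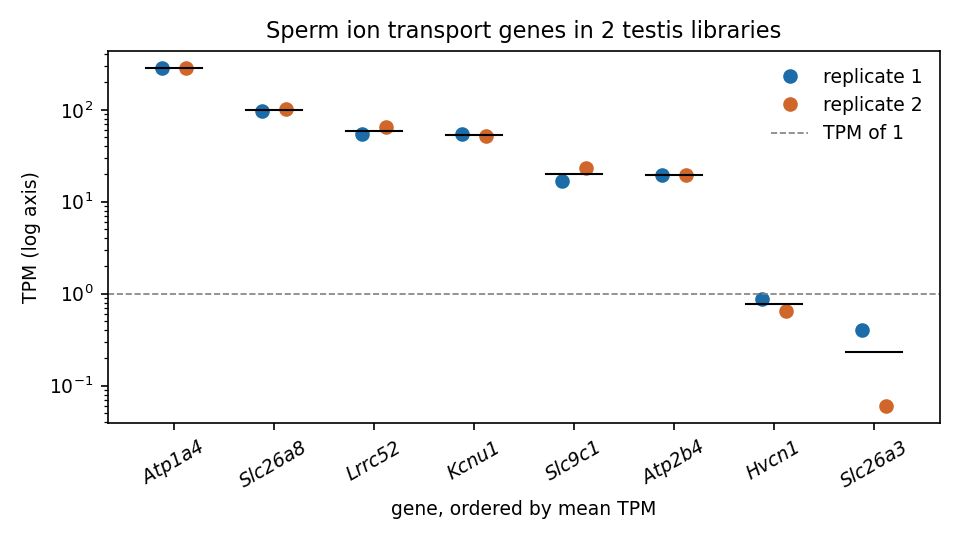
TPM (log axis) of each gene in replicate 1 (blue) and replicate 2 (orange), with the mean as a black line and a dashed line at a TPM of 1. Atp1a4 stands at 286.41 and 286.84, the middle genes lie between 16.85 and 101.99, and Hvcn1 and Slc26a3 fall under the dashed line.

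For Kcnu1, Atp2b4 and Slc26a8, RNA was divided among transcripts that code for different proteins, and the stretches that set those transcripts apart are shown first. They were read from GENCODE M21 transcripts on mm10, 5′ to 3′ along the gene, and all positions given are on that build.

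The first is the alternative exon of Atp2b4, shown because its use divides the gene's RNA into forms with different coding ends. It lies at chr1:133711632-133711822 on the minus strand. Capitals mark the last 10 bases, which are absent from the shorter version of the exon.
Atp2b4 alternative exon: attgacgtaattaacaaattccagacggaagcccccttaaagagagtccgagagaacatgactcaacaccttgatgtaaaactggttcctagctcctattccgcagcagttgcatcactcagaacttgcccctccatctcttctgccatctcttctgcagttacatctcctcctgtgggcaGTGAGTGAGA

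The next is the place in Kcnu1 where the annotated coding part of a short transcript begins, at chr8:25913683-25913742 on the plus strand. Capitals mark the start codon, which lies in the reading frame of the full-length transcript after 2220 of its 3363 coding bases.
Kcnu1 short form, coding start: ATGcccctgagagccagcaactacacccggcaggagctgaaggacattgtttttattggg

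The last is the stretch of Slc26a8 that a shorter transcript keeps as coding sequence and the main transcript removes as intron, at chr17:28650055-28650165 on the minus strand. Capitals mark the stop codon that ends it.
Slc26a8 read-through: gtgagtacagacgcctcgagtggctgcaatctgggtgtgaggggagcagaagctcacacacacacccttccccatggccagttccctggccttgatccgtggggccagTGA

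**Figure D2:**
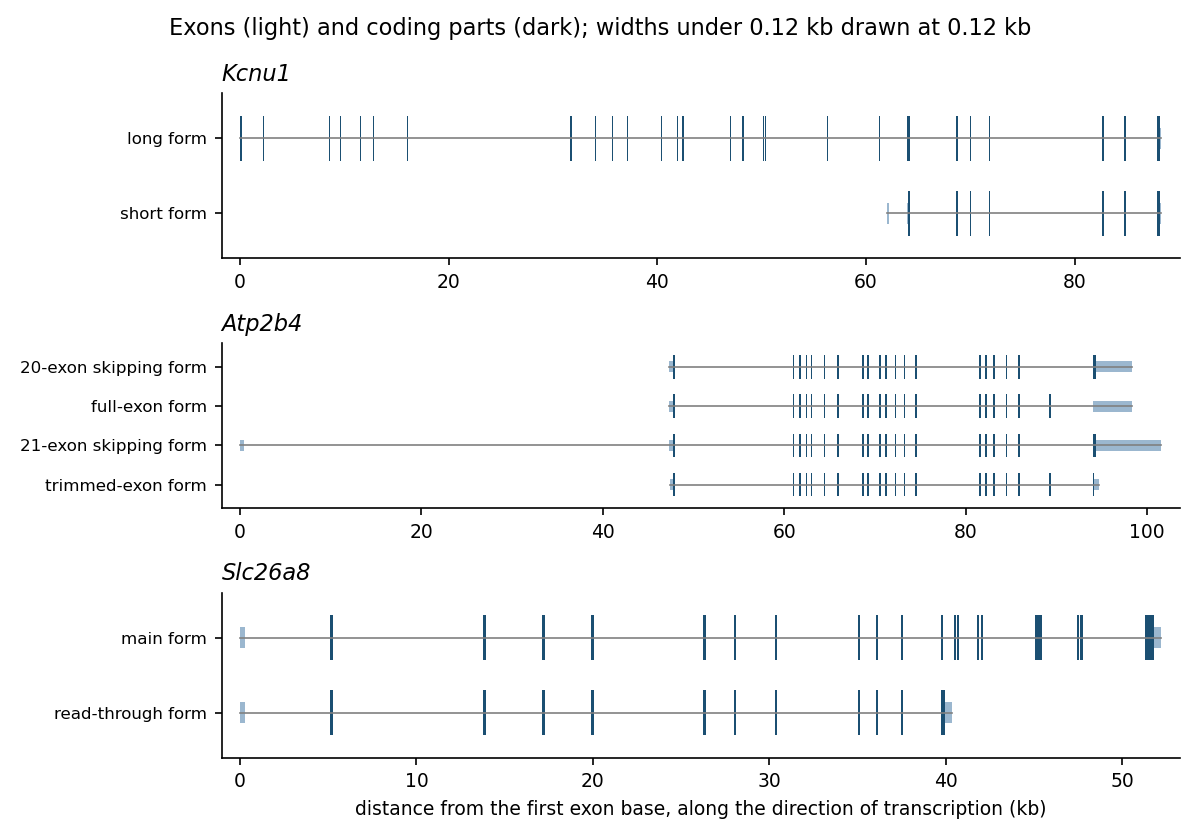
Annotated exons (light) and coding parts (dark) of the main transcripts of Kcnu1, Atp2b4 and Slc26a8 against distance from the first exon base in kb, along the direction of transcription. Exons too narrow to see are widened. The Kcnu1 short form holds only downstream exons, the full-exon and trimmed-exon forms of Atp2b4 have 1 coding exon that the skipping forms lack, and the Slc26a8 read-through form ends inside the gene.

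The potassium channel was represented by both of its known subunits at similar gene levels, before the transcripts of Kcnu1 were told apart. Kcnu1, on chr8:25849623-25937939 (ENSMUSG00000031576.11, plus strand), encodes the SLO3 pore-forming subunit, a testis-specific relative of the large-conductance channel SLO1. Replicates 1 and 2 gave 53.92 and 51.6 TPM (52.76 ± 1.64, SD, n = 2), from 4782.69 and 4993 expected counts. Lrrc52, on chr1:167445669-167466780 (ENSMUSG00000040485.5, minus strand), encodes the leucine-rich repeat protein that associates with SLO3 and shifts its opening towards physiological voltages. Its level was 53.85 TPM in replicate 1 and 64.75 TPM in replicate 2 (59.3 ± 7.71, SD, n = 2), from 2046 and 2554 expected counts, and its annotation holds a single transcript. The deposited intervals of the libraries, 51.04 to 55.67 and 61.69 to 66.67, did not overlap, whereas those of Kcnu1 did. The Lrrc52 to Kcnu1 ratio of TPM was 0.999 in replicate 1 and 1.25 in replicate 2.

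Both genes led their families. Kcnu1 made up 86.3% and 85.9% of the summed TPM of the 4 Slo-type channel genes. The sodium-activated channel gene Kcnt1 was next at 6.12 and 6.03 in replicates 1 and 2, the SLO1 gene Kcnma1 had 2.43 and 2.42, and Kcnt2 had 0.04 and 0.05. Lrrc52 held 83.4% and 90% of the 4 genes for this type of auxiliary subunit. Its relatives were Lrrc55 at 6.5 and 3.84, Lrrc26 at 3.86 and 3.07, and Lrrc38 at 0.32 and 0.27. In both families the leader lay above every relative in each library, without overlap. The coding sequence of Kcnu1 was identical to that of Kcnma1, its nearest relative here, at 53.3% of alignment columns, and Lrrc52 was nearest to Lrrc38 at 50%.

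Much of the Kcnu1 level was assigned to a transcript that could not encode the whole channel. The deposited table lists 3 transcripts. The long form, with 27 exons (ENSMUST00000098858), took 46.42% of the gene's TPM in replicate 1 and 51.93% in replicate 2. The short form, with 8 exons of which the first lies at chr8:25911680-25911749 within an intron of the long form (ENSMUST00000120653), took 51.74% and 44.86%. The long form therefore ranked below the short form in replicate 1 and above it in replicate 2, and mean shares of 49.17% ± 3.9 and 48.3% ± 4.86 (SD, n = 2) did not differ beyond their spread. A form with 6 exons took 1.84% and 3.21%.

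The coding part of the short form is 1143 bases, 34% of that of the full-length form, and starts at the in-frame codon printed above. By expected counts the order was clear, with 3361.6 and 3750.26 for the long form against 1401.28 and 1208.56 for the short form, since TPM divides by a transcript length of 3529 and 1446 bases. Of the 8 exons of the short form, 7 overlap exons of the long form, so the division of their reads is an estimate, and only the first exon of 70 bases lies apart. Counting the long form alone, Kcnu1 had a TPM of 25.03 and 26.79, still above every other Slo-type gene. That was below Lrrc52, at 53.85 and 64.75, in both libraries.

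**Figure D3:**
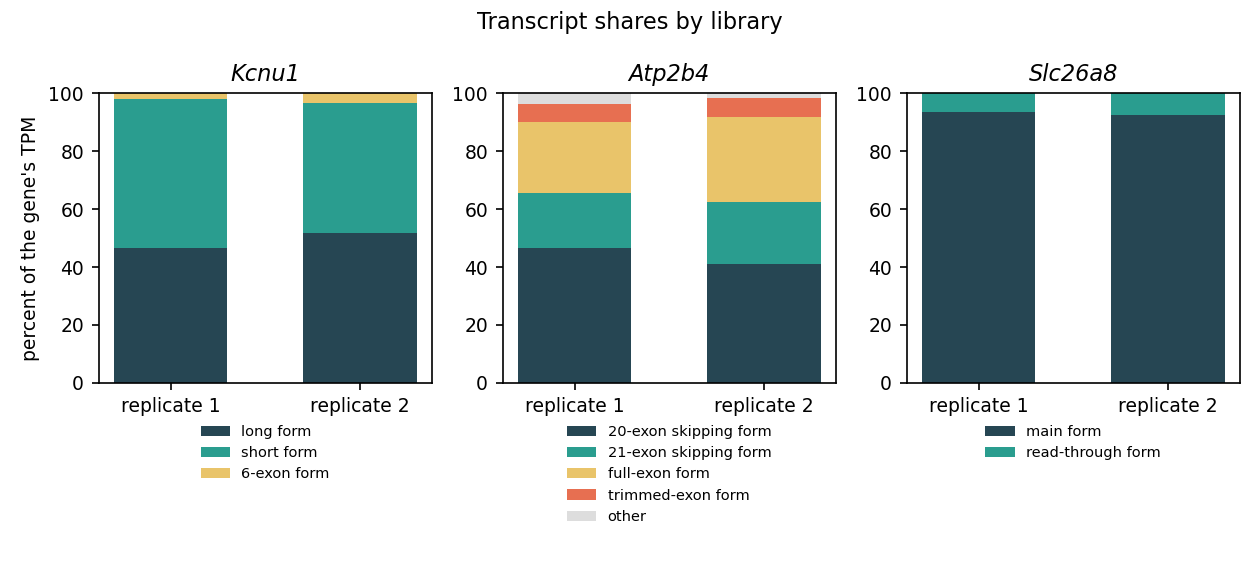
Percent of the gene's TPM assigned to each transcript of Kcnu1, Atp2b4 and Slc26a8, as stacked bars for replicates 1 and 2. Kcnu1 is divided almost evenly between a long and a short form, Atp2b4 among 4 coding forms, and the main form of Slc26a8 holds 93.64% and 92.65%.

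Proton transport was represented very unevenly. Slc9c1, on chr16:45535309-45607001 (ENSMUSG00000033210.12, plus strand), encodes the sperm sodium/proton exchanger, which carries a voltage sensor and a cyclic nucleotide-binding domain and is needed for motility in mice. Its level was 16.85 TPM in replicate 1 and 23.05 TPM in replicate 2 (19.95 ± 4.38, SD, n = 2), from 2472 and 3525 expected counts, and the deposited intervals, 16.09 to 17.41 and 22.14 to 23.67, did not overlap. Slc9c1 was the detected gene of the group that differed most between the libraries, at a log2 ratio of 0.44 for replicate 2 over replicate 1 (95% counting interval 0.36 to 0.51). All reads were assigned to its protein-coding transcript of 28 exons, at 100% in each library, and its 2 transcripts marked for nonsense-mediated decay were at 0.

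Slc9c1 was not the highest sodium/proton exchanger gene by level. Slc9b1, the gene for another exchanger of sperm tails, had 79.79 and 86.35, and Slc9a8, which serves in Golgi and acrosome formation, had 46.92 and 54.16. Both exceeded Slc9c1 in each library. Slc9a5, at 19.57 and 18.13, lay within the range of Slc9c1. The lowest was Slc9b2 at 0.02 and 0.13. The soluble adenylyl cyclase gene Adcy10, whose product is found with SLC9C1 in mouse sperm, stood at 73.34 and 75.07, which was 4.35 and 3.26 times the TPM of Slc9c1. Its activator bicarbonate is supplied by carbonic anhydrases, of which Car2 had 376.69 and 378.57 and Car4 had 3.52 and 2.06. Prkaca, the catalytic subunit gene of the cAMP-dependent kinase, had 72.87 and 70.49.

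Hvcn1, on chr5:122206804-122242297 (ENSMUSG00000064267.9, plus strand), encodes the voltage-gated proton channel, a leading proton exit route in human sperm and a channel of B cells and phagocytes. Replicates 1 and 2 gave 0.88 and 0.65 TPM (0.765 ± 0.163, SD, n = 2), from 92 and 66 expected counts. Its level lay below that of Slc9c1 in both libraries, and ranked 14316 of 21474 protein-coding genes. A coding transcript with 8 exons took 100% and 89.28%, and a coding transcript with 6 exons took 0% and 10.72%, the latter from 2.38 counts.

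Of the exon bases of Hvcn1, 44.2% lie inside exons of Tctn1, a ciliary gene on the opposite strand at a TPM of 62.35 and 56.53. Whether counting used the strand was not stated in the labels or headers, so reads of the pair cannot be told apart in that part. The 4 macrophage markers were all detected, with TPM sums of 26.64 and 24.82. The 7 lymphocyte markers summed to 2.41 and 2.53. The part of these cells in the Hvcn1 level was not tested.

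Sodium extrusion had the highest level of the group. Atp1a4, on chr1:172223513-172258414 (ENSMUSG00000007107.6, minus strand), encodes the sodium pump alpha subunit found in sperm, where it supports motility. Its TPM was 286.41 in replicate 1 and 286.84 in replicate 2 (286.62 ± 0.304, SD, n = 2), from 37783.4 and 39435.68 expected counts. The libraries were nearly the same, at a log2 ratio of -0.01 (95% counting interval -0.03 to 0.01). Atp1a4 ranked 559 of 21474 protein-coding genes by mean TPM, and its 23-exon transcript took 100% in each library. It held 54.3% and 52.3% of the summed TPM of the 8 genes.

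Of the 76-base windows of the Atp1a4 transcript, the read length here, 0.854% also occur in other annotated genes. For the leading transcripts of the other 7 members, no such window occurs in the sense strand of another annotated gene's transcripts. Reverse complements were not searched, so the overlap of Hvcn1 with Tctn1 exons on the opposite strand is not covered.

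An alpha subunit needs a beta subunit to reach the membrane. Of the 4 beta subunit genes 3 were detected, and Atp1b3 was highest at 256.91 and 265.04, close to the level of Atp1a4, with a ratio of Atp1a4 to Atp1b3 of 1.11 and 1.08. Atp1b2 had 24.81 and 35.07, Atp1b1 had 10.54 and 13.68, and Atp1b4 had no count, which allows up to 0.0612 and 0.0583 CPM (3 counts scaled to each library's total). Of the 7 genes for FXYD proteins, small modulators of the pump, 4 were detected, led by Fxyd1 at 55.3 and 46.02. Fxyd3 had 5.74 in replicate 1 and 0.56 in replicate 2, in the direction of the epididymis markers, and the part of that tissue was not tested.

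**Figure D4:**
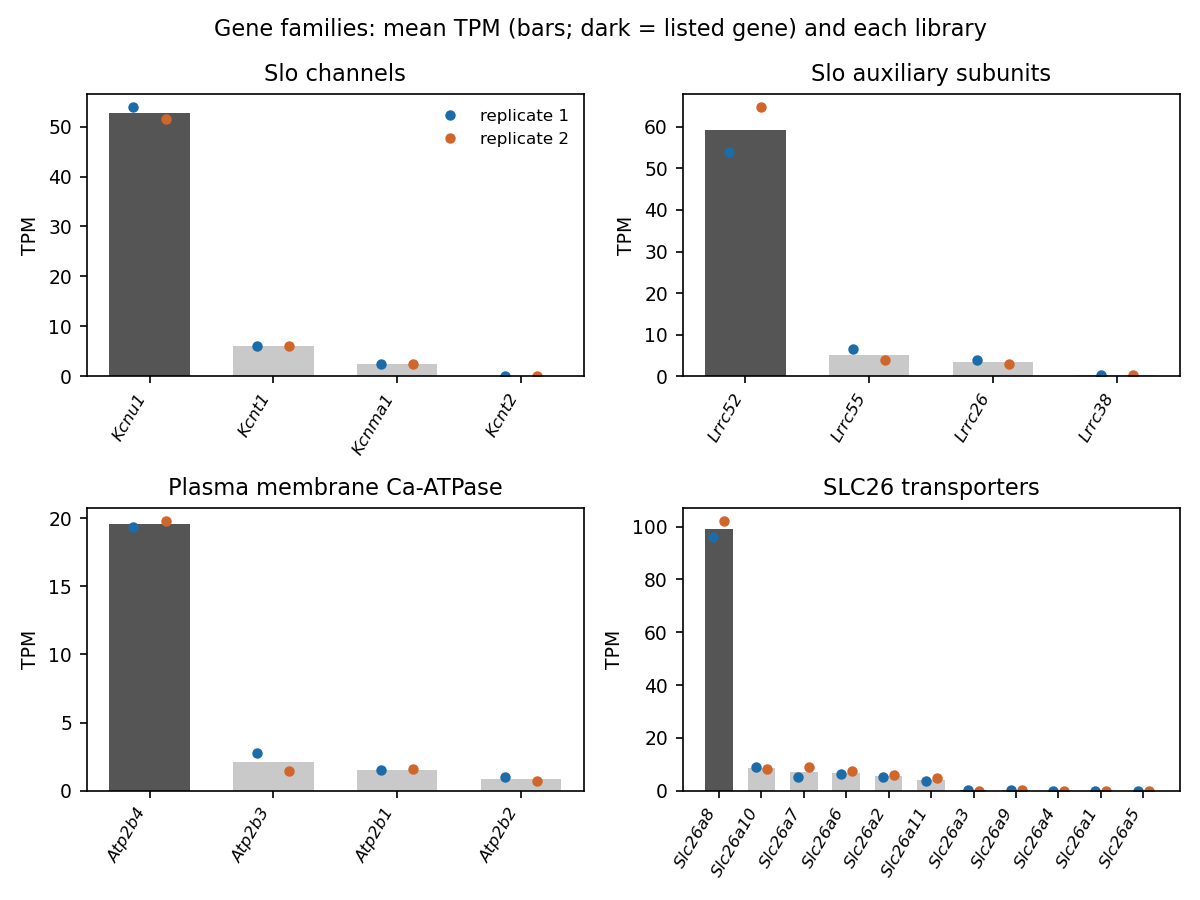
Mean TPM (bars, dark for the genes described here and grey for their relatives) and the value in replicate 1 (blue) and replicate 2 (orange) for 4 gene families. Kcnu1, Lrrc52, Atp2b4 and Slc26a8 are the tallest of their panels, while Slc26a3 is close to 0 beside Slc26a8.

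Calcium export was represented by Atp2b4. The gene, on chr1:133699457-133801041 (ENSMUSG00000026463.13, minus strand), encodes plasma membrane calcium ATPase 4, which clears calcium from sperm and without which mouse sperm cannot hyperactivate. Replicates 1 and 2 gave 19.39 and 19.77 TPM (19.58 ± 0.269, SD, n = 2), from 6373 and 6974 expected counts. It led its family of 4 with 78.5% and 83.9% of TPM. Atp2b3 had 2.78 and 1.45, Atp2b1 had 1.51 and 1.59, and Atp2b2 had 1.03 and 0.74. Atp2b4 lay above its relatives in each library by more than their range.

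The calcium pump genes are spliced near the coding end, where use of an exon shifts the reading frame and gives the a form of the protein in place of the b form. Of the 4 Atp2b4 coding transcripts with counts, 2 carry the exon printed above and 2 skip it. The forms that skip it, with 20 exons (ENSMUST00000165602) and 21 exons (ENSMUST00000143567), together took 65.74% of the gene's TPM in replicate 1 and 62.4% in replicate 2 (64.1% ± 2.36, SD, n = 2). The forms that carry it whole (ENSMUST00000048953) or trimmed (ENSMUST00000125659) took 30.5% and 36.05% (33.3% ± 3.92, SD, n = 2). The skipping forms were higher in both libraries.

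The annotated coding lengths follow the exon. Both skipping forms code for 3615 bases, and in the 20-exon form 303 of these lie in the last exon. In the full-exon form the exon of 191 bases holds 186 coding bases and then a stop codon, for 3498 in all. In the trimmed-exon form it is 181 bases, without the capital letters that hold that stop, and reading goes on for 23 bases into the last exon, for 3516 in all. By single transcript, the 20-exon skipping form was highest in both libraries at 46.64% and 41.2%. The full-exon form followed at 24.55% and 29.55%, the 21-exon skipping form at 19.1% and 21.2%, and the trimmed-exon form at 5.95% and 6.5%, the same order in both. These forms share most of their exons, so the shares are estimates by the authors' read assignment.

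Basigin and neuroplastin, membrane proteins that act as subunits of these pumps, were both well above Atp2b4. Bsg had a TPM of 754.6 and 796.76, which was 38.9 and 40.3 times that of Atp2b4, and Nptn had 78.91 and 70.39. Pumps of internal stores were detected in 5 of 5 cases, led by the reticulum pump gene Atp2a2 at 49.1 and 54.93, with Atp2c2 lowest at 1.27 and 1.06. Smooth muscle, where Atp2b4 is also known to be expressed, had all 6 of its markers higher in replicate 1, and the Atp2b4 log2 ratio of replicate 2 over replicate 1 was 0.05 (95% counting interval 0.01 to 0.10). The part of that tissue in the Atp2b4 level was not tested.

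The 2 anion exchanger genes lay at opposite ends of the group. Slc26a8, on chr17:28637783-28690233 (ENSMUSG00000036196.11, minus strand), encodes a male germ cell anion transporter of the sperm annulus that is known to act with the chloride channel CFTR. Its level was 96.17 TPM in replicate 1 and 101.99 TPM in replicate 2 (99.08 ± 4.12, SD, n = 2), from 13112 and 14431.92 expected counts. It led the 11 SLC26 genes with 76.1% and 74% of their summed TPM, and 6 of the 11 were detected. Slc26a10 followed at 9.09 and 8.31, Slc26a7 had 5.28 and 9.11, Slc26a6, an exchanger also described in sperm, had 6.4 and 7.31, and Slc26a5, the outer hair cell motor prestin, was lowest at 0.03 and 0.01.

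Nearly all Slc26a8 RNA was assigned to the main form with 20 exons, at 93.64% and 92.65%. The read-through form, which has 12 exons, runs on through a splice site into the sequence printed above and codes for 1563 rather than 2997 bases. It took 6.36% and 7.35% (6.86% ± 0.7, SD, n = 2), from 505.47 and 644.96 counts. Known partners of the protein were present. Racgap1, for a GTPase-activating protein that binds it, had 36.6 and 39.53, and Cftr had 6.77 and 7.06, so Slc26a8 was 14.2 and 14.4 times as high as Cftr.

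Slc26a3, on chr12:31390871-31473917 (ENSMUSG00000001225.8, plus strand), encodes the chloride/bicarbonate exchanger of the colon, which has also been described in sperm. Replicates 1 and 2 gave 0.4 and 0.06 TPM (0.23 ± 0.24, SD, n = 2), from 27 and 8 expected counts. The deposited posterior mean TPM, a smoothed estimate that differs most at low counts, was 0.55 and 0.23. By either measure it was the lowest of the 8 in both libraries. Its place among the SLC26 genes depended on the library, since it lay above Slc26a9 (0.15), Slc26a4 (0.09) and Slc26a1 (0.04) in replicate 1 and below them (0.27, 0.08 and 0.08) in replicate 2. Of the 8 genes, it alone passed a 2-fold difference between libraries, where 6.5% of 20275 genes with at least 10 counts on average did and 4.11% did so towards replicate 1. None of the 6 detected genes did, where 1.61% of 15479 detected genes did and 0.956% towards replicate 1. The log2 ratio of Slc26a3 was -1.83 (95% counting interval -3.18 to -0.65), 3.56-fold higher in replicate 1 and without a replicate check. Its deposited TPM intervals, 0.3172 to 0.8076 in replicate 1 and 0.09824 to 0.3738 in replicate 2, overlapped. The replicate 2 interval holds the posterior mean TPM of 0.23 but not the TPM of 0.06.

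The counts of Slc26a3 were divided among 4 of its 7 transcripts, and the full coding transcript of 21 exons had 16.86 and 3.34. That transcript took 38.68% and 46.31% of the gene's TPM. A coding transcript of 7 exons took 45.83% and 0%, and a transcript of 5 exons with a retained intron took 5.51% and 53.69%, on too few reads to order them. The epididymis markers moved in the same direction by their sum, at 715.21 and 3.81 TPM. Of the 11, 7 were higher in replicate 1, though Lcn5 and Lcn8 among them had only 2 and 1 counts there. The 2 higher in replicate 2 were Lcn9, on 1 count, and Rnase10, the only detected marker, at 2.42 and 3.23. Slc9a3, an epithelial exchanger gene, was higher in replicate 1, at 1.04 and 0.15. The part of epididymal tissue in the Slc26a3 value was not tested. The 5 intestinal markers summed to only 1.52 and 1.67.

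The libraries were compared over the whole group from scaled counts. Log2 ratios of replicate 2 over replicate 1 were positive for 4 genes and negative for 4. The largest among detected members were those of Slc9c1 at 0.44 and Lrrc52 at 0.24 (95% counting interval 0.16 to 0.33). Both were higher in replicate 2, the direction of all 5 Sertoli markers and of 4 of 5 markers each for round spermatids and spermatocytes. Leydig markers were mixed by scaled ratio, with Insl3 at 0.30, Lhcgr at 0.12, Star at 0.03, Cyp11a1 at -0.01 and Cyp17a1 at -0.28. The part of any of these cell types in either difference was not tested. Slc26a8 at 0.06 (0.03 to 0.10) and Atp2b4 at 0.05 differed by little, though their intervals left out 0. The interval of Kcnu1 included 0, at -0.01 (-0.07 to 0.04). Hvcn1 was at -0.55 (-1.03 to -0.08), while its deposited TPM intervals, 0.7767 to 1.235 and 0.551 to 0.9643 in replicates 1 and 2, overlapped. The median absolute log2 ratio was 0.06 over the 6 detected genes and 0.17 over all detected genes. Each of those 6 had a mean TPM above 12.9, the median over detected protein-coding genes, and genes of like level were not compared. The log2 intervals cover counting error only.

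**Figure D5:**
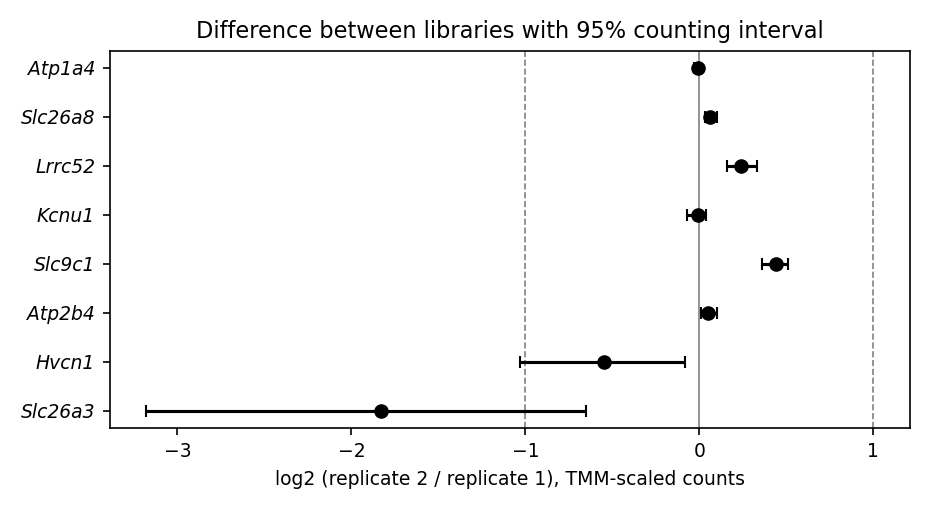
Log2 ratio of replicate 2 over replicate 1 from scaled counts for each gene, with 95% counting intervals as bars, a solid line at 0 and dashed lines at a 2-fold difference. Only Slc26a3, at -1.83, lies past a dashed line, and the 2 genes with the fewest counts have the widest bars.

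The genes were set beside the 10 measured CatSper genes, which encode the calcium channel of the sperm tail. All 10 CatSper genes were detected, and 6 of the 8 here, where 62.1% of protein-coding genes were. The median of mean TPM was 113.28 over the 10 CatSper genes and 36.355 over all 8 here, detected or not. Catsper1, for a pore subunit, had a TPM of 188.7 and 226.43, which was 3.5 and 4.39 times that of Kcnu1. Catsperz was highest at 1241.96 and 1103.18, and Catsperb lowest at 12.81 and 18.64, below Kcnu1 and Lrrc52 in both libraries.

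In their position the 8 genes share little. Atp1a4, Atp2b4 and Lrrc52 lie on chromosome 1, and 0 lie on X or Y. The RefSeq promoter table (GRCm38.p6) held 6 of the 8, without Kcnu1 and Hvcn1. In the 250 bases before the start, on either strand, the core of the cAMP response element, TGACG, occurred in 0 of 6, and in 17.8% of 32851 promoters. The letters CCAAT occurred in Slc9c1, Slc26a8 and Slc26a3, and in 33.8% of all promoters. TATAAA occurred in Slc26a3 alone, and in 12.4% of all. The GC box, GGGCGG, occurred in 0 of 6, and in 32.7% of all. The full cAMP response element, TGACGTCA, also occurred in 0 of 6, and in 1.55% of all.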

How the data were processed

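Poly(A)-selected testis RNA was measured in 2 libraries, replicates 1 and 2 of 1 group. Per the deposited readme, values are on mm10 with annotation M4. Per the file headers, the authors deposited expected counts (estimated reads per gene or transcript), TPM, posterior means of both with intervals, and IsoPct, each transcript's percent of its gene, with the aligner and counter not given in the sources used here. Rows that are not Ensembl genes held 2.68% and 2.51% of counts and were left out. GENCODE M21 gave symbols for 42462 of 43346 genes and transcript structures. The deposited length of the Kcnu1 long form is 3529 bases, and 3536 in M21.

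Counts were rounded and scaled by TMM in edgeR 4.0.16 over genes with at least 10 counts on average. DESeq2 1.42.0 size factors were an alternative. Intervals are exact binomial and were tested on simulated data. The simulation drew independent counts, for which such intervals hold by design, and their coverage was checked only for well-counted genes. Hvcn1 and Slc26a3 lay below that range. Coding sequences were aligned in Biopython 1.88. Levels are TPM, with no pseudocount. Members and lists were chosen with earlier results of these data known. Named are all 8 members, paralogs of theirs, and transcripts with at least 10% of a gene. The minor forms of Slc26a8, Atp2b4 and Kcnu1, and Fxyd3, Slc9a3 and Tctn1 were named after their values were seen. The deposited mm9 junctions and contigs were not used here. Some relatives and markers are not reported here.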

Additional observations from a re-analysis of the deposited data

How the results depend on the processing

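The count of detected genes was 6 at a TPM threshold of 5, by posterior mean TPM and in either library alone, and 7 at a threshold of 0.5. The count past 2-fold stayed at 1 under DESeq2 size factors, total count scaling, posterior mean counts and a fold of 1.5. The median TPM of the 8 genes was 36.355, and 36.62 to 37.325 when 1 library was left out. Of the 8 places in the order of levels, 8 held without replicate 1 and 4 without replicate 2, since Kcnu1 with Lrrc52 and Slc9c1 with Atp2b4 change places, and 6 held by posterior mean TPM. Posterior mean TPM gave 284.24 for Atp1a4 and 20.31 for Atp2b4. No paired analysis was possible because there is only 1 group. Depth limits Hvcn1 and Slc26a3 most, and no interval here covers variation between animals.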
